A study of Solanum lycopersicum with 36 samples.

Results

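Leaves of nongrafted, self-rooted tomato seedlings (NGSs) after 96 h in salt were compared with leaves of NGSs at 0 h by RNA-seq. The comparison used the 3 libraries of the NGSs at 96 h (replicates 13, 14 and 15) and the 3 of the NGSs at 0 h (replicates 1, 2 and 3), chosen by their labels from the 36 libraries of the series. The NGSs at 96 h were seedlings of the cultivar Zhongza 9 on their own roots whose Hoagland nutrient solution had been given 175 mM NaCl, and the NGSs at 0 h were seedlings of the same kind before salt was added, with 3 biological replicates in each group. The other libraries came from NGSs at 6, 12, 24 and 48 h and from grafted seedlings (GSs), Zhongza 9 shoots on the rootstock QZ-006, at the same times and at 0 and 96 h. No unstressed seedlings were sequenced after 0 h, so the effects of salt and of the 96 h that had passed cannot be told apart, although both samplings were made at the same hour of the day. RNA of leaf tissue was measured, in which fewer cells of a type and less RNA per cell cannot be told apart.

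Salt in the root zone lowers the water potential around the root and, as sodium and chloride reach the shoot, loads the leaf with ions. Leaves are known to answer with abscisic acid (ABA), with dehydrins and other protective proteins, with compatible solutes such as proline and raffinose-family sugars, and by moving sodium out of the cytoplasm through antiporters. Growth, which relies on auxin, gibberellin and wall-loosening enzymes, and photosynthesis, whose proteins are encoded partly in the nucleus and partly in the plastid genome, are known to be held back under long salt exposure.

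Reads on genes, recovered from the deposited FPKM values (reads scaled to gene length and library size), numbered 26238295, 22563429 and 21742923 in the 96 h libraries, against 18403175, 15229644 and 17177189 in the 0 h libraries. The squared correlation of log2 values over the 20090 genes tested was 0.874 to 0.950 between replicates at 96 h and 0.919 to 0.951 at 0 h, and between a 96 h and a 0 h library it was 0.721 to 0.820. A library in each group lay closer to the other group than its replicates did. Replicate 14 was the lowest of the 96 h libraries in 1049 of the genes upregulated at 96 h (56.4%) and the highest of them in 1337 of the genes downregulated. Replicate 2 was the highest of the 0 h libraries in 798 of the genes upregulated (42.9%). Calls and group counts are therefore also given without both libraries where this ended a call or moved a count by more than 1.5 times. Both were singled out for lying close to the other group, so a larger count without them follows in part from that choice and adds no support. The tissue was checked with organ markers. The summed FPKM of 17 leaf mesophyll markers was 25310 to 65030 at 96 h and 63830 to 99280 at 0 h (exact two-sided permutation test, p = 0.2, where 0.1 is the smallest p that 3 libraries against 3 can give). That of 8 root markers was 56.65 to 194.0 at 96 h and 29.49 to 64.34 at 0 h (same exact test, p = 0.2), with FER and NRAMP1 at or near 0 in every library. Of the leaf markers 1 was upregulated and 3 were downregulated, of 3 fruit markers tested 1 was downregulated, of 2 flower markers none was called, and of 4 root markers tested 1, FRO1, was upregulated. The number of upregulated root markers was 3 without replicate 14 at 96 h and 3 without replicates 14 and 2 together, and that of upregulated fruit markers 1 without replicate 14 at 96 h and 1 without replicates 14 and 2 together, and no leaf marker was upregulated without replicates 14 and 2 together. The fruit genes PG2, E8 and RIN and the pollen gene LAT52 were also at or near 0 throughout. By contrast, the fruit markers Psy1, PL and SPL-CNR and the flower marker TDR6 were expressed in every library compared. The summed FPKM of the fruit markers was 412 to 465.8 at 96 h and 478.2 to 496 at 0 h. That of the flower markers was 29.94 to 37.31 at 96 h and 28.84 to 42.43 at 0 h.

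A gene was called a differentially expressed gene (DEG) when limma on log2(FPKM + 1) gave a false discovery rate (FDR) under 0.05 and the log2 fold change was 1 or more in size. The NGSs at 96 h had 3761 DEGs against 0 h, 18.7% of the 20090 genes tested, of which 1859 (9.25%) were upregulated and 1902 (9.47%) were downregulated. The median log2 fold change was 1.6 among the upregulated DEGs, -1.39 among the downregulated DEGs and -0.01 over all genes tested. Changes of 2 or more on the log2 scale were found in 531 upregulated and 349 downregulated DEGs, and changes of 4 or more in 37 and 29. The 96 h and 0 h libraries did not overlap in 3510 of the DEGs, while 49.3% of all genes tested did not overlap. Without replicates 14 and 2, 1920 genes were upregulated and 2412 were downregulated. In the 38 groups of genes with known roles described below, 139 of 783 genes tested were upregulated and 77 were downregulated, which makes 27.6% DEGs. These groups were chosen with earlier results of these data known, so a share above that of all genes adds no support. Fold changes are on the log2(FPKM + 1) scale, which understates those of weakly expressed genes, and are given with their standard error (SE) and with the limma p adjusted over all genes tested.

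The largest rise among genes with a symbol whose libraries did not overlap was that of TAS14, a dehydrin known to be induced by ABA and salt in tomato. TAS14 had 1789, 356 and 779 FPKM at 96 h, against 5.01, 191 and 17.6 FPKM at 0 h (log2 fold change 4.83 ± 1.11, adjusted p = 0.0013). The gap between the groups was narrow in replicates 14 and 2. The next was pip1, a cysteine protease secreted to the apoplast. pip1 had 166, 55.1 and 126 FPKM at 96 h, against 3.01, 2.83 and 3.66 FPKM at 0 h (log2 fold change 4.67 ± 1.10, adjusted p = 0.0016). Its 96 h libraries all lay far above a narrow 0 h range. ERF-H9, a transcription factor of the ethylene response factor family, had 28.7, 17.9 and 18.6 FPKM at 96 h, against 0.339, 0.179 and 0.0852 FPKM at 0 h (log2 fold change 4.22 ± 0.80, adjusted p = 0.00021). ERF-H9 was thus nearly silent at 0 h and expressed in all 3 libraries at 96 h. Other transcription factors with large rises were WRKY46 and WRKY81. WRKY46 had 38.9, 21.7 and 23.7 FPKM at 96 h, against 0.683, 3.20 and 0.0490 FPKM at 0 h (log2 fold change 3.85 ± 1.25, adjusted p = 0.016). The call of WRKY46 was lost without replicate 13 (3.60) at 96 h or replicate 3 (3.40) at 0 h. WRKY81 had 189, 115 and 132 FPKM at 96 h, against 13.1, 13.4 and 4.70 FPKM at 0 h (log2 fold change 3.77 ± 1.17, adjusted p = 0.013). The call of WRKY81 was lost without replicate 3 (3.33) at 0 h. All 96 h libraries were above all 0 h libraries for both genes, but both were chosen among genes without overlap, so this adds no support. UGT73C4, a glycosyltransferase, had 139, 58.3 and 128 FPKM at 96 h, against 3.72, 5.76 and 4.23 FPKM at 0 h (log2 fold change 4.21 ± 0.76, adjusted p = 0.00013). The rises of ODD (log2 fold change 3.92 ± 0.63, adjusted p = 3.3e-05) and LOC543602, also listed as Eli3 (3.77 ± 0.74, adjusted p = 0.00029), were of similar size, and GolS2, SGR1, XTH3 and LOC101258345 are described with their groups. Over all DEGs, the largest log2 fold changes were those of LOC543942 (5.79), LOC101250584 (5.50) and LOC101253759 (5.35), which have no symbol in the reference. LOC543942 had 139, 82.7 and 122 FPKM at 96 h, against 1.19, 2.34 and 0.159 FPKM at 0 h.

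The largest falls lay elsewhere, since 8 of the 12 genes with a symbol and the largest falls belonged to the plastid genome and another, rrn26, to the mitochondrial genome. Over all DEGs, the 3 largest falls were those of unannotated transcripts (log2 fold changes -6.94, -6.46 and -6.13), the largest of which had 1.3, 1.06 and 1.27 FPKM at 96 h, against 276, 389.8 and 181 FPKM at 0 h. The nuclear genes among the 12 were CD1, cathDInh and yfe37. CD1, the cutin synthase of the plant surface, had 0.643, 38.1 and 1.42 FPKM at 96 h, against 44.5, 61.3 and 79.3 FPKM at 0 h (log2 fold change -3.51 ± 0.93, adjusted p = 0.0041). Replicate 14 stayed near the lowest 0 h library for CD1, and the other 96 h libraries were close to 0. cathDInh, a cathepsin D inhibitor of the kind induced by wounding, had 2.45, 0.682 and 8.03 FPKM at 96 h, against 75.6, 243 and 15 FPKM at 0 h (log2 fold change -4.16 ± 1.64, adjusted p = 0.044). The call of cathDInh was lost without replicate 13 (-4.10), 14 (-3.58) or 15 (-4.79) at 96 h or replicate 1 (-4.06) or 2 (-3.22) at 0 h. The call of cathDInh (-2.65, adjusted p = 0.31) was lost without replicates 14 and 2 together. yfe37 had 6.09, 38.7 and 8.03 FPKM at 96 h, against 384, 46.1 and 201 FPKM at 0 h (log2 fold change -3.50 ± 1.17, adjusted p = 0.019). The call of yfe37 was lost without replicate 13 (-3.02) or 15 (-3.20) at 96 h or replicate 1 (-2.84) or 3 (-3.30) at 0 h. Neither gene overlapped between the groups, which was a condition of the choice of these 12, and both varied widely among the 0 h libraries.

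**Figure D1:**
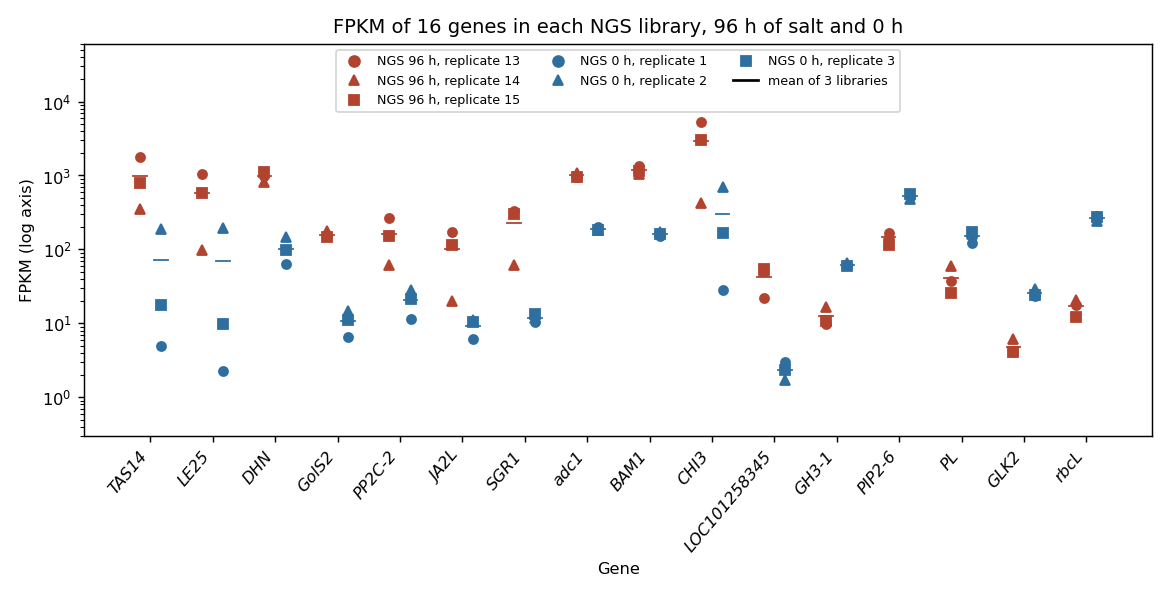
FPKM (log axis) of 16 genes in each library of the NGSs at 96 h (red, left of each pair) and at 0 h (blue, right), with the mean of the 3 libraries as a bar and a symbol for each replicate. Replicate 14 at 96 h (356 FPKM for TAS14) and replicate 2 at 0 h (191 FPKM) came close to each other for TAS14 and crossed for LE25 and CHI3, whereas GolS2, adc1 and GH3-1 showed little spread in either group.

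Genes of dehydrins, late embryogenesis abundant (LEA) proteins and lipid transfer proteins, of which dehydrins and LEA proteins protect drying cells, gave 7 upregulated genes of the 10 tested and none downregulated, with a median log2 fold change of 2.07. DHN, a dehydrin, had 983, 826 and 1125 FPKM at 96 h, against 64.2, 145 and 99.2 FPKM at 0 h (log2 fold change 3.30 ± 0.47, adjusted p = 9.4e-06). Every 96 h library was far above the highest 0 h library for DHN. LE25, a LEA protein, had 1063, 99.7 and 579.5 FPKM at 96 h, against 2.27, 197 and 9.85 FPKM at 0 h (log2 fold change 4.37 ± 1.31, adjusted p = 0.0099). Replicate 14 at 96 h was below replicate 2 at 0 h for LE25. The call of LE25 was lost without replicate 13 (3.66) at 96 h or replicate 1 (3.10) at 0 h. LEA14, chosen after its values were seen, had 220.5, 344 and 379.5 FPKM at 96 h, against 52.8, 45.8 and 61.1 FPKM at 0 h (log2 fold change 2.51 ± 0.77, adjusted p = 0.011). The call of LEA14 (2.33, adjusted p = 0.063) was lost without replicates 14 and 2 together. Without replicates 14 and 2 together, 4 of the 10 genes were upregulated and none was downregulated.

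Of the genes for compatible solutes, 7 of 21 were upregulated and 2 were downregulated, and the largest rise was that of GolS2 of the galactinol route to raffinose-family sugars. GolS2, a galactinol synthase, had 149.8, 177 and 147 FPKM at 96 h, against 6.50, 14.5 and 11 FPKM at 0 h (log2 fold change 3.83 ± 0.60, adjusted p = 2.8e-05). GolS-1, another galactinol synthase, was at 0 in all libraries at 0 h and had 4.13, 4.18 and 3.89 FPKM at 96 h (adjusted p = 1.6e-05), at least 26.3-fold higher when set against 3 reads per library. LOC543809, which encodes the myo-inositol-1-phosphate synthase that supplies inositol to that route, had 3034, 2692 and 3095 FPKM at 96 h, against 389, 491 and 464 FPKM at 0 h (log2 fold change 2.72 ± 0.32, adjusted p = 1e-06). None of these genes overlapped between the groups, and their replicates were close to each other at 96 h. For GolS2 the lack of overlap was a condition of its choice among the 12 largest rises. LOC544313, a glutamate decarboxylase that makes γ-aminobutyrate, had 30.3, 27 and 34 FPKM at 96 h, against 6.64, 8.43 and 9.12 FPKM at 0 h (log2 fold change 1.80 ± 0.39, adjusted p = 0.0007). For proline, the paralogous biosynthetic genes PRO1 and PRO2 differed. PRO1, chosen after its values were seen, had 2.68, 11.1 and 4.85 FPKM at 96 h, against 1.95, 1.20 and 0 FPKM at 0 h (log2 fold change 1.78 ± 0.46, adjusted p = 0.0036). PRO2 had 23.4, 28 and 21 FPKM at 96 h, against 25.3, 29.1 and 27.4 FPKM at 0 h (log2 fold change -0.18 ± 0.16, adjusted p = 0.38). PRO2, the more abundant of the pair in FPKM, overlapped between the groups and was not called. AS1, an asparagine synthetase, had 87.3, 2.01 and 47.1 FPKM at 96 h, against 0.303, 3.03 and 2.02 FPKM at 0 h (log2 fold change 3.22 ± 1.09, adjusted p = 0.021). The call of AS1 was lost without replicate 13 (2.26) or 15 (2.70) at 96 h or replicate 1 (2.74) at 0 h. Replicate 14 was within the 0 h range for AS1. The 2 downregulated genes of the group were PDH (log2 fold change -1.67 ± 0.48, adjusted p = 0.0076) and MIOX (-2.06 ± 0.37, adjusted p = 0.00011). Their number was 1 without replicates 14 and 2 together.

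Of the ABA genes, 7 of 17 were upregulated and none was downregulated, and the rises included both synthesis and inactivation of the hormone. ZEP, zeaxanthin epoxidase of the carotenoid route to ABA, chosen after its values were seen, had 158, 141 and 153 FPKM at 96 h, against 33.7, 47.9 and 43.1 FPKM at 0 h (log2 fold change 1.84 ± 0.30, adjusted p = 4.1e-05). NCED1, the 9-cis-epoxycarotenoid dioxygenase that commits carotenoids to ABA, also chosen after its values were seen, had 52.1, 13.1 and 14.4 FPKM at 96 h, against 6.87, 4.38 and 5.92 FPKM at 0 h (log2 fold change 1.77 ± 0.63, adjusted p = 0.028). The call of NCED1 was lost without replicate 13 (1.15) at 96 h or replicate 2 (1.62) or 3 (1.80) at 0 h. CYP707A2, an ABA 8'-hydroxylase that inactivates the hormone, had 17.7, 25.7 and 31.8 FPKM at 96 h, against 3.86, 1.33 and 1.96 FPKM at 0 h (log2 fold change 2.98 ± 0.91, adjusted p = 0.011). All 3 had 96 h libraries above every 0 h library. The calls of NCED1 (1.95, adjusted p = 0.054) and CYP707A2 (2.71, adjusted p = 0.067) were lost without replicates 14 and 2 together. Type 2C protein phosphatases, which hold ABA signaling in check and are themselves ABA-induced, rose as well. PP2C-1 had 313, 252 and 296 FPKM at 96 h, against 68.6, 77 and 69.8 FPKM at 0 h (log2 fold change 1.98 ± 0.20, adjusted p = 1.3e-07). PP2C-2 had 265, 62.1 and 151 FPKM at 96 h, against 11.4, 28.6 and 21.6 FPKM at 0 h (log2 fold change 2.76 ± 0.59, adjusted p = 0.0007). PP2C-1 was even among its replicates, whereas PP2C-2 was lowest in replicate 14. ABI2, another phosphatase of this kind, had 42.6, 24.9 and 52.3 FPKM at 96 h, against 8.23, 7.88 and 6.80 FPKM at 0 h (log2 fold change 2.19 ± 0.28, adjusted p = 2.2e-06). The bZIP factor AREB1 (log2 fold change 0.95 ± 0.33, adjusted p = 0.023) did not reach the fold threshold. The 4 genes of the group with log2 fold changes below 0 were ASR1 (-0.75), Asr2 (-0.96, adjusted p = 0.025), ASR3 (-1.99, adjusted p = 0.058) and Asr4 (-0.60). None of these 4 was called. The number of downregulated ABA genes was 2 without replicate 1 at 0 h.

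NAC transcription factors, several of which act in ABA responses and in leaf senescence, had the highest share of DEGs of the 38 groups. Of 11 tested, 10 were upregulated and none was downregulated, with a median log2 fold change of 1.96. The group was found by symbol and synonym, with earlier results of these data known, and does not stand for the whole NAC family. JA2L had 171, 20.1 and 116 FPKM at 96 h, against 6.13, 11.1 and 10.4 FPKM at 0 h (log2 fold change 2.92 ± 0.65, adjusted p = 0.001). NACMTF2 had 76, 111 and 89.1 FPKM at 96 h, against 18.5, 18.3 and 16 FPKM at 0 h (log2 fold change 2.31 ± 0.42, adjusted p = 0.00014). Replicate 14 was far below the other 96 h libraries for JA2L and above them for NACMTF2. NAP1 (log2 fold change 2.67 ± 0.71, adjusted p = 0.0044) and NAC1 (2.47 ± 0.64, adjusted p = 0.0036) were among the 4 largest rises of the group. WRKY factors, known for defense and stress signaling, gave 8 upregulated genes of 20 and none downregulated (median log2 fold change 1.51). WRKY31 had 140.4, 94.8 and 156 FPKM at 96 h, against 22.9, 22.1 and 16 FPKM at 0 h (log2 fold change 2.61 ± 0.59, adjusted p = 0.0012). The libraries of WRKY31 did not overlap. The number of upregulated WRKY genes was 5 without replicate 3 at 0 h. ERF and DREB factors, which include the DREB/CBF regulators of drought and cold genes, gave 12 upregulated and 3 downregulated genes of 61. DREB3, chosen after its values were seen, had 230.1, 215 and 253 FPKM at 96 h, against 57.8, 87 and 85.7 FPKM at 0 h (log2 fold change 1.61 ± 0.47, adjusted p = 0.008). ERF-H8 had 0.534, 0.895 and 0.244 FPKM at 96 h, against 3.85, 8.47 and 10.1 FPKM at 0 h (log2 fold change -2.38 ± 0.37, adjusted p = 2.2e-05). Thus ERF-H8 and ERF-H9, members of a common subgroup, moved in opposite directions.

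**Figure D2:**
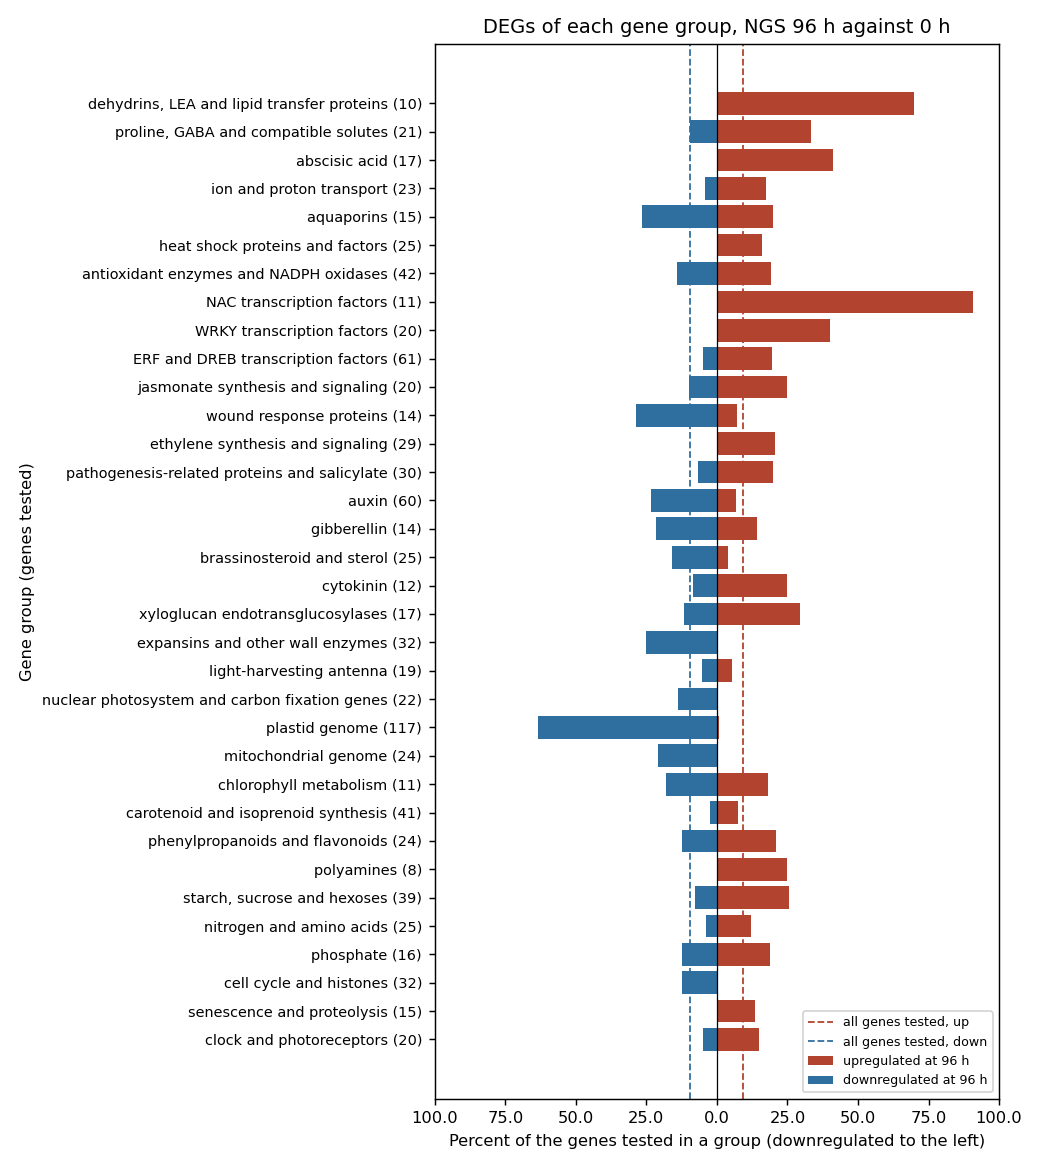
Percent of the tested genes of each group that were upregulated (red, to the right) or downregulated (blue, to the left) in the NGSs at 96 h against 0 h, with the number of genes tested in parentheses. Dashed lines mark the same percents over all 20090 genes tested (9.25% and 9.47%), which the NAC factors (10 of 11 upregulated) and the plastid genome (74 of 117 downregulated) exceeded by most. The groups were chosen with earlier results of these data known.

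Sodium is carried across membranes by antiporters and by HKT transporters, which belong to the genes of ion and proton transport. Of 23 genes of ion and proton transport, 4 were upregulated and 1 was downregulated, which is 21.7% DEGs against 18.7% over all genes (median log2 fold change 0.34). SOS1, the sodium/proton antiporter of the plasma membrane, had 12.3, 12.1 and 12.1 FPKM at 96 h, against 13.7, 11.6 and 11.8 FPKM at 0 h (log2 fold change -0.02 ± 0.11, adjusted p = 0.93). SOS2, the kinase that activates SOS1, had 20.8, 22 and 22.3 FPKM at 96 h, against 38.6, 40.3 and 45.8 FPKM at 0 h (log2 fold change -0.90 ± 0.17, adjusted p = 0.00015). SOS1 overlapped between the groups, and the difference of SOS2 passed the FDR but not the fold threshold. NHX1, a vacuolar antiporter, had 5.13, 3.96 and 5.42 FPKM at 96 h, against 2.88, 3.24 and 2.32 FPKM at 0 h (log2 fold change 0.61 ± 0.19, adjusted p = 0.012). nhx3, of the same family, had 18.3, 11.5 and 23 FPKM at 96 h, against 3.88, 5.61 and 4.89 FPKM at 0 h (log2 fold change 1.64 ± 0.36, adjusted p = 0.00093). Of SOS1, NHX1 and nhx3, only nhx3 was called upregulated. The other upregulated genes were pumps and a channel. LHA4, a plasma membrane proton ATPase, had 184, 101 and 204 FPKM at 96 h, against 71.2, 64.9 and 61.1 FPKM at 0 h (log2 fold change 1.24 ± 0.23, adjusted p = 0.00019). ACA10, a calcium ATPase, had 51.4, 40.3 and 44.6 FPKM at 96 h, against 14.7, 14.6 and 13 FPKM at 0 h (log2 fold change 1.61 ± 0.27, adjusted p = 4.6e-05). CNGC15, a cyclic nucleotide-gated channel, had 29.8, 14.7 and 23.1 FPKM at 96 h, against 5.66, 6.06 and 4.24 FPKM at 0 h (log2 fold change 1.85 ± 0.44, adjusted p = 0.0019). LHA4, ACA10 and CNGC15 did not overlap between the groups. The downregulated gene was nhx4 (log2 fold change -1.07, adjusted p = 0.0094), and the number of downregulated genes was 0 without replicate 14 at 96 h or replicate 3 at 0 h and 0 without replicates 14 and 2 together.

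Aquaporins, the channels for water in the plasma membrane and tonoplast, moved both ways, with 3 of 15 upregulated and 4 downregulated. PIP2-6 had 168, 164 and 115 FPKM at 96 h, against 518, 486 and 559 FPKM at 0 h (log2 fold change -1.82 ± 0.24, adjusted p = 4.6e-06). PIP1-3 had 134, 294 and 123 FPKM at 96 h, against 585, 462 and 546 FPKM at 0 h (log2 fold change -1.64 ± 0.33, adjusted p = 0.00039). XIP1-1-beta had 27.6, 46.4 and 29.8 FPKM at 96 h, against 106, 171 and 195 FPKM at 0 h (log2 fold change -2.14 ± 0.34, adjusted p = 2.5e-05). The falls of these plasma membrane aquaporins held in each library, with the highest 96 h library under the lowest 0 h library. PIP2-4 had 291, 137 and 198 FPKM at 96 h, against 56.4, 65.2 and 50.9 FPKM at 0 h (log2 fold change 1.78 ± 0.51, adjusted p = 0.0076). PIP1-7, chosen after its values were seen, had 582, 1069.7 and 511 FPKM at 96 h, against 244, 310.3 and 302 FPKM at 0 h (log2 fold change 1.26 ± 0.34, adjusted p = 0.0048). The call of PIP1-7 was lost without replicate 14 (0.94) at 96 h. The call of PIP1-7 (1.00, adjusted p = 0.053) was lost without replicates 14 and 2 together. PIP1-7 was thereby the most abundant of these 5 aquaporins at 96 h, whereas PIP1-3, PIP2-6 and PIP1-7 were the most abundant at 0 h.

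A group of antioxidant enzymes, which also held NADPH oxidases that make superoxide, had 8 of 42 genes upregulated and 6 downregulated. The upregulated ones included the NADPH oxidase genes RBOH1 and Wfi1. The call of Wfi1 was lost without replicate 15 (1.92) at 96 h or replicate 3 (1.93) at 0 h. AOX1a, the alternative oxidase that bypasses part of the mitochondrial electron transport chain, had 188, 159.7 and 195 FPKM at 96 h, against 17, 22.9 and 17 FPKM at 0 h (log2 fold change 3.20 ± 0.47, adjusted p = 1.1e-05). RBOH1, an NADPH oxidase that makes superoxide in the apoplast, had 12.7, 15.3 and 11.8 FPKM at 96 h, against 1.89, 1.52 and 1.62 FPKM at 0 h (log2 fold change 2.41 ± 0.33, adjusted p = 5.7e-06). CEVI-1, a peroxidase, had 149.9, 52.2 and 60.1 FPKM at 96 h, against 572, 505 and 544 FPKM at 0 h (log2 fold change -2.78 ± 0.55, adjusted p = 0.0003). None of the 3 genes overlapped between the groups. The number of upregulated genes of the group was 4 without replicate 15 at 96 h. Heat shock proteins and factors gave 4 upregulated genes of 25 and none downregulated. HSP16-9, a small heat shock protein, was at 0 in all libraries at 0 h and had 3.93, 1.27 and 1.10 FPKM at 96 h, at least 7.61-fold higher when set against 3 reads per library. Hsp90-1, a chaperone of the cytosol, had 104, 86.6 and 117 FPKM at 96 h, against 42.6, 38.4 and 40.2 FPKM at 0 h (log2 fold change 1.31 ± 0.42, adjusted p = 0.015). The call of Hsp90-1 was lost without replicate 15 (1.22) at 96 h. The number of upregulated heat shock genes was 9 without replicate 2 at 0 h and 9 without replicates 14 and 2 together.

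Of the ethylene genes, 6 of 29 were upregulated and none was downregulated (median log2 fold change 0.61). That is 20.7% DEGs against 18.7% over all genes. ACO1, an oxidase of the last step of ethylene synthesis, had 911, 356 and 756 FPKM at 96 h, against 117, 100.5 and 25.4 FPKM at 0 h (log2 fold change 3.20 ± 0.87, adjusted p = 0.005). ACO4, of the same family, had 1062, 694 and 1171 FPKM at 96 h, against 424, 215 and 283 FPKM at 0 h (log2 fold change 1.69 ± 0.34, adjusted p = 0.00043). ETR6, an ethylene receptor, had 11.2, 5.39 and 10.6 FPKM at 96 h, against 0.701, 0.874 and 0.730 FPKM at 0 h (log2 fold change 2.45 ± 0.38, adjusted p = 2.5e-05). These rises held in every library. Jasmonate genes gave 5 upregulated and 2 downregulated of 20. loxD, the lipoxygenase that opens jasmonate synthesis, had 32.4, 23.7 and 29.3 FPKM at 96 h, against 3.36, 3.57 and 2.30 FPKM at 0 h (log2 fold change 2.86 ± 0.74, adjusted p = 0.0036). MYC2, the transcription factor of jasmonate responses, had 43.1, 52.2 and 55.5 FPKM at 96 h, against 24.6, 14.5 and 14 FPKM at 0 h (log2 fold change 1.49 ± 0.39, adjusted p = 0.0041). JAR1, the enzyme that joins jasmonate to isoleucine, had 8.11, 8.23 and 7.74 FPKM at 96 h, against 17.3, 27.6 and 28.9 FPKM at 0 h (log2 fold change -1.47 ± 0.30, adjusted p = 0.00049). The genes loxD and JAR1 thus moved in opposite directions. The number of upregulated jasmonate genes was 3 without replicate 15 at 96 h or replicate 3 at 0 h. Wound response proteins gave 1 upregulated and 4 downregulated genes of 14 (median log2 fold change -0.89). LOC101259357, a polyphenol oxidase, had 1.22, 7.23 and 1.07 FPKM at 96 h, against 15.7, 27.4 and 26.6 FPKM at 0 h (log2 fold change -2.81 ± 0.76, adjusted p = 0.0046). Downregulated wound genes numbered 2 without replicate 15 at 96 h or replicate 1 or 2 at 0 h and 2 without replicates 14 and 2 together, and upregulated wound genes 3 without replicate 14 at 96 h and 2 without replicates 14 and 2 together.

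Pathogenesis-related proteins gave 6 upregulated and 2 downregulated genes of 30, and the number of upregulated genes depended on single libraries. It was 1 without replicate 13 or 15 at 96 h or replicate 1 at 0 h and 2 without replicate 3 at 0 h. CHI3, a chitinase, had 5280.4, 430.1 and 3054 FPKM at 96 h, against 28.3, 703 and 168 FPKM at 0 h (log2 fold change 3.65 ± 1.3, adjusted p = 0.027). CHI3 had the largest rise in mean FPKM of the called annotated genes, but replicate 14 at 96 h lay below replicate 2 at 0 h. The call of CHI3 was lost without replicate 13 (2.92) or 15 (3.32) at 96 h or replicate 1 (2.47) or 3 (3.73) at 0 h. PR1b1, a marker of salicylate responses, had 14203, 865 and 4042 FPKM at 96 h, against 602, 513 and 314 FPKM at 0 h (log2 fold change 3.00 ± 1.34, adjusted p = 0.075). PR1b1 was above its 0 h range in every 96 h library but was not called, except without replicate 14, where its log2 fold change was 4.04. LEMT1 and ltpg1 were also among the 5 largest rises in mean FPKM and were not called, with log2 fold changes of 0.70 (adjusted p = 0.026) and 0.94 (adjusted p = 0.063).

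Auxin genes fell more often than they rose, with 14 of 60 downregulated and 4 upregulated (median log2 fold change -0.30), and the falls reached synthesis, transport and conjugation. FZY2, a flavin monooxygenase of auxin synthesis, had 1.04, 2.09 and 1.49 FPKM at 96 h, against 7.66, 13.4 and 14.4 FPKM at 0 h (log2 fold change -2.31 ± 0.34, adjusted p = 1.3e-05). PIN4, an efflux carrier chosen after its values were seen, had 19.6, 22.5 and 16.1 FPKM at 96 h, against 60.4, 62 and 64.3 FPKM at 0 h (log2 fold change -1.64 ± 0.28, adjusted p = 6.9e-05). GH3-1, which conjugates auxin to amino acids, had 9.87, 16.8 and 10.8 FPKM at 96 h, against 61.5, 65 and 59.6 FPKM at 0 h (log2 fold change -2.26 ± 0.31, adjusted p = 5.5e-06). None of the 3 overlapped between the groups, and their replicates at 0 h differed by less than the fall. IAA15, a repressor of the Aux/IAA family, had 94, 38.8 and 51.5 FPKM at 96 h, against 8.26, 18.3 and 11.8 FPKM at 0 h (log2 fold change 2.15 ± 0.64, adjusted p = 0.0099). The call of IAA15 was lost without replicate 13 (1.80) at 96 h. In the gibberellin group 2 of 14 genes were upregulated and 3 were downregulated, with an inactivating enzyme and a synthetic one moving in opposite directions. GA2ox3, which inactivates gibberellin, had 5.70, 12.9 and 8.30 FPKM at 96 h, against 0.248, 0.105 and 0.149 FPKM at 0 h (log2 fold change 3.03 ± 0.59, adjusted p = 0.00026). GA20OX1, an oxidase of gibberellin synthesis, had 1.09, 12.9 and 6.30 FPKM at 96 h, against 47, 25.3 and 30.3 FPKM at 0 h (log2 fold change -2.52 ± 0.70, adjusted p = 0.0062). The call of GA20OX1 was lost without replicate 13 (-1.76) at 96 h. GID2, the F-box protein of gibberellin signaling, had 39.2, 57.8 and 38.7 FPKM at 96 h, against 119.8, 162 and 201 FPKM at 0 h (log2 fold change -1.80 ± 0.28, adjusted p = 2.6e-05). The number of downregulated gibberellin genes was 1 without replicate 13 at 96 h.

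Brassinosteroid and sterol genes gave 1 upregulated and 4 downregulated of 25, and cytokinin genes gave 3 upregulated and 1 downregulated of 12. CYP734A8, of a family that inactivates brassinosteroids, had 0.147, 0.647 and 0.318 FPKM at 96 h, against 2.43, 5.54 and 3.94 FPKM at 0 h (log2 fold change -1.83 ± 0.27, adjusted p = 1.2e-05). SSR1, a sterol side chain reductase, had 57.9, 68.2 and 53.3 FPKM at 96 h, against 26.5, 22.5 and 24.8 FPKM at 0 h (log2 fold change 1.24 ± 0.16, adjusted p = 3.8e-06). Both held in every library. TLOG1, of the family that releases active cytokinin, had 346, 227 and 348 FPKM at 96 h, against 64.9, 86.7 and 76.1 FPKM at 0 h (log2 fold change 1.99 ± 0.24, adjusted p = 1.1e-06). CKX2, an oxidase that degrades cytokinin, had 13.9, 5.85 and 10 FPKM at 96 h, against 2.22, 0.452 and 1.48 FPKM at 0 h (log2 fold change 2.20 ± 0.40, adjusted p = 0.00013). TLOG1 and CKX2 thus both rose. LOG7 had 1.04, 3.47 and 2.10 FPKM at 96 h, against 6.38, 5.84 and 6.51 FPKM at 0 h (log2 fold change -1.25 ± 0.25, adjusted p = 0.0004). The call of LOG7 was lost without replicate 13 (-0.96) at 96 h. Downregulated brassinosteroid and sterol genes numbered 2 without replicate 13 or 15 at 96 h or replicate 3 at 0 h. The 7 genes of steroidal glycoalkaloid synthesis, defense compounds of tomato leaves, all had log2 fold changes below 0 (median -1.24), but none was called, and 1 was downregulated without replicates 14 and 2 together.

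Enzymes of the cell wall moved both ways. Xyloglucan endotransglucosylase/hydrolases (XTHs), which cut and rejoin the xyloglucan tethers between cellulose fibers, gave 5 upregulated and 2 downregulated genes of 17. XTH3 had 20.9, 38.3 and 82.3 FPKM at 96 h, against 3.10, 1.55 and 1.41 FPKM at 0 h (log2 fold change 3.82 ± 0.89, adjusted p = 0.0014). LOC101258345 had 22.1, 50.9 and 54.3 FPKM at 96 h, against 2.97, 1.73 and 2.38 FPKM at 0 h (log2 fold change 3.61 ± 0.65, adjusted p = 0.00012). LOC101258926 had 19.7, 34.2 and 51.3 FPKM at 96 h, against 2.17, 2.23 and 2.23 FPKM at 0 h (log2 fold change 3.39 ± 0.69, adjusted p = 0.00043). All of these were expressed at low levels in each 0 h library and at clearly higher levels in each 96 h library. For XTH3 and LOC101258345 the lack of overlap was a condition of their choice among the 12 largest rises. LOC101258632 had 16.2, 52.8 and 43.6 FPKM at 96 h, against 3.44, 5.12 and 6.22 FPKM at 0 h (log2 fold change 2.57 ± 0.74, adjusted p = 0.0078). XTH1, chosen after its values were seen, had 156, 219 and 139 FPKM at 96 h, against 43.8, 62.8 and 52.2 FPKM at 0 h (log2 fold change 1.66 ± 0.47, adjusted p = 0.0066). The genes LOC101258345, LOC101258632 and LOC101258926 lie near each other on chromosome 3 and have related sequences, so that reads could have been shared among them. The number of downregulated XTHs was 0 without replicate 13 or 15 at 96 h or replicate 2 or 3 at 0 h. Expansins and other wall enzymes gave 8 downregulated genes of 32 and none upregulated. PL, a pectate lyase, had 37.5, 59.1 and 25.4 FPKM at 96 h, against 122, 163 and 172 FPKM at 0 h (log2 fold change -1.95 ± 0.42, adjusted p = 0.0008). LOC543515, also listed as the xylosidase gene XYL2, had 4.21, 10.7 and 3.39 FPKM at 96 h, against 29.3, 43.9 and 55.8 FPKM at 0 h (log2 fold change -2.72 ± 0.39, adjusted p = 8.9e-06). TLRP, a tyrosine- and lysine-rich wall protein, had 6669.8, 3784 and 5520.4 FPKM at 96 h, against 15781, 17115 and 13705 FPKM at 0 h (log2 fold change -1.58 ± 0.35, adjusted p = 0.00092). TLRP was among the most abundant transcripts of the leaf and one of the 5 largest falls in mean FPKM.

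Genes of photosynthesis are given by the genome that encodes them, the nucleus first. Of 22 nuclear genes of photosystems and carbon fixation, 3 were downregulated and none was upregulated (median log2 fold change -0.30), and of 19 antenna genes, which encode the chlorophyll-binding proteins, 1 was downregulated and 1 was upregulated (median -0.21). The shares of DEGs were 13.6% and 10.5%, against 18.7% over all genes. rbcS1, a small subunit of Rubisco, had 1954, 6937 and 4441 FPKM at 96 h, against 17432, 13473 and 14973 FPKM at 0 h (log2 fold change -1.96 ± 0.53, adjusted p = 0.0048). LOC543974, the small subunit gene rbcS2, fell as well (log2 fold change -1.3 ± 0.41, adjusted p = 0.014), and RBCS4 did not pass the test (-0.65 ± 0.49, adjusted p = 0.29). The call of LOC543974 was lost without replicate 13 (-1.01) at 96 h or replicate 1 (-1.10) at 0 h. Near-identical small subunit genes can share reads, and their sum took 2.81% ± 1.17 (SD, n = 3) of the reads at 96 h, against 5.49% ± 0.934 (SD, n = 3) at 0 h (exact two-sided permutation test, p = 0.1). CAB12, an antenna protein, had 3.99, 189.7 and 39.2 FPKM at 96 h, against 439, 238 and 379 FPKM at 0 h (log2 fold change -3.34 ± 1.17, adjusted p = 0.025). The call of CAB12 was lost without replicate 13 (-1.96) or 15 (-3.47) at 96 h or replicate 1 (-3.16) or 3 (-3.27) at 0 h. Replicates 13 to 15 thus spread over a wide range for CAB12, all below the 0 h libraries. The number of downregulated nuclear photosystem and carbon fixation genes was 1 without replicate 13 at 96 h or replicate 1 at 0 h and 5 without replicate 14 at 96 h and 5 without replicates 14 and 2 together, and that of downregulated antenna genes was 0 without replicate 13 or 15 at 96 h or replicate 1 or 3 at 0 h and 2 without replicate 14 at 96 h and 2 without replicates 14 and 2 together. The upregulated antenna gene was LOC101267774, also listed as CAB3A and CAB3B (log2 fold change 1.15 ± 0.39, adjusted p = 0.02). The call of LOC101267774 was lost without replicate 14 (0.94) or 15 (1.2) at 96 h or replicate 2 (0.98) at 0 h. The call of LOC101267774 (0.77, adjusted p = 0.21) was lost without replicates 14 and 2 together. The number of upregulated nuclear photosystem and carbon fixation genes was 1 without replicate 14 at 96 h and 1 without replicates 14 and 2 together, and that of upregulated antenna genes was 0 without replicate 14 or 15 at 96 h or replicate 2 at 0 h and 0 without replicates 14 and 2 together.

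Most transcripts of the plastid genome were downregulated, a grouping made after the values were seen. Of 117 plastid genes tested, 74 were downregulated and 1, psbJ, was upregulated, with a median log2 fold change of -1.67, against 9.47% downregulated over all genes. The falls covered 22 of 33 genes of the photosystems, the cytochrome b6f complex, the ATP synthase and Rubisco, 6 of 11 genes of the NAD(P)H dehydrogenase, 17 of 24 genes of ribosomal proteins and RNA polymerase, 18 of 34 tRNA genes and 2 of 3 rRNA genes. rbcL, the large subunit of Rubisco, had 17.8, 20.8 and 12.2 FPKM at 96 h, against 287, 242 and 278 FPKM at 0 h (log2 fold change -3.94 ± 0.84, adjusted p = 0.00064). atpE, a subunit of the ATP synthase, had 6.38, 28.8 and 27.6 FPKM at 96 h, against 311, 239 and 194 FPKM at 0 h (log2 fold change -3.73 ± 0.55, adjusted p = 1.4e-05). psbI, of photosystem II, had 9.17, 23.8 and 24.8 FPKM at 96 h, against 196, 249 and 204 FPKM at 0 h (log2 fold change -3.53 ± 0.51, adjusted p = 9.5e-06). These genes did not overlap between the groups, which was a condition of the choice of the 12 largest falls, to which they belong. Plastid LyesC2r001, an rRNA gene (log2 fold change -5.93 ± 1.01, adjusted p = 6.6e-05), and the tRNA genes trnM-CAU (-5.11 ± 0.84, adjusted p = 4.3e-05) and trnR-UCU (-4.05 ± 0.52, adjusted p = 2.6e-06) were also among the 12 largest falls. psbJ, of photosystem II and chosen after its values were seen, had 50.9, 90.1 and 61.7 FPKM at 96 h, against 55.2, 20.9 and 24.4 FPKM at 0 h (log2 fold change 1.08 ± 0.38, adjusted p = 0.027). The call of psbJ was lost without replicate 14 (0.86) or 15 (1.13) at 96 h or replicate 2 (0.82) or 3 (0.93) at 0 h. The call of psbJ (0.59, adjusted p = 0.32) was lost without replicates 14 and 2 together. Plastid genes together took 0.0262% to 0.0432% of the reads at 96 h, against 0.205% to 0.216% at 0 h, a mean 0.16 times that at 0 h (exact two-sided permutation test, p = 0.1, the smallest possible). The share was between 0.0755% and 0.0976% in the GSs at 0 h, below all NGS libraries at 0 h, and 1 GS library at 48 h reached 0.294%. Mitochondrial genes took 0.00513% ± 0.000309 at 96 h, against 0.123% ± 0.0358 at 0 h (SD, n = 3 each; exact permutation test, p = 0.1), with 5 of 24 genes tested downregulated and none upregulated (3 downregulated without replicates 14 and 2). Of these 24 genes 20.8% were DEGs, against 18.7% over all genes. Their median log2 fold change was -0.56, with rrn26 at -4.74. The mitochondrial share of reads in GSs at 0 h was 0.0131% to 0.0250%, below all NGS libraries at 0 h. The step that enriched mRNA is not given in the sources used here. A difference between libraries in the organelle RNA carried through that step cannot be told apart from a fall of these transcripts.

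**Figure D3:**
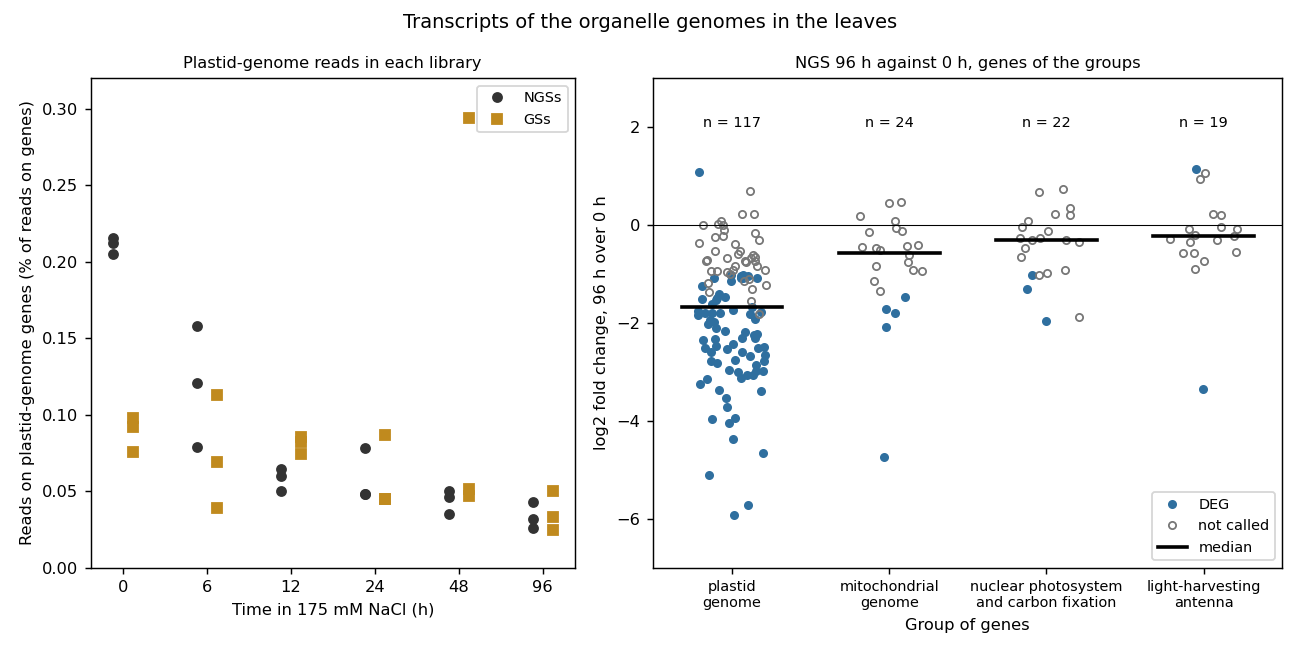
Left, percent of reads on genes of the plastid genome in each library by time, for NGSs and GSs; right, log2 fold change of each tested gene of the plastid genome (117), the mitochondrial genome (24), nuclear photosystem and carbon fixation genes (22) and the antenna (19) in NGSs at 96 h against 0 h, with medians as lines. The NGSs lay at 0.0262% to 0.0432% at 96 h and at 0.205% to 0.216% at 0 h, and the median log2 fold change was -1.67 for plastid genes and -0.30 for the nuclear photosystem and carbon fixation genes.

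Chlorophyll genes gave 2 upregulated and 2 downregulated of 11. SGR1, the stay-green protein that starts chlorophyll breakdown, had 328, 62.1 and 297 FPKM at 96 h, against 10.4, 11.9 and 13.3 FPKM at 0 h (log2 fold change 3.84 ± 0.84, adjusted p = 0.00082). CHLN, also listed as CLN, had 82.1, 119 and 223 FPKM at 96 h, against 34.8, 28 and 30.5 FPKM at 0 h (log2 fold change 2.03 ± 0.54, adjusted p = 0.0046). GLK2, a transcription factor of chloroplast development, had 4.08, 6.17 and 4.07 FPKM at 96 h, against 23.2, 29.3 and 24.3 FPKM at 0 h (log2 fold change -2.22 ± 0.20, adjusted p = 2.4e-08). SGR1 was above, and GLK2 below, the 0 h range in every 96 h library. For SGR1 the lack of overlap was a condition of its choice among the 12 largest rises. Downregulated chlorophyll genes numbered 1 without replicate 13 or 15 at 96 h or replicate 1 at 0 h, 5 without replicate 14 at 96 h and 4 without replicate 2 at 0 h and 5 without replicates 14 and 2 together. POR, of protochlorophyllide reductase, had 6.18, 34.9 and 14.2 FPKM at 96 h, against 76.1, 26.1 and 42.3 FPKM at 0 h (log2 fold change -1.51 ± 0.59, adjusted p = 0.044). The call of POR was lost without replicate 13 (-0.94) or 15 (-1.48) at 96 h or replicate 1 (-1.12) or 3 (-1.54) at 0 h. Senescence genes otherwise gave 2 upregulated of 15, and 0 without replicate 15 at 96 h, and 1 was downregulated without replicate 1 at 0 h. With all libraries their share of DEGs was 13.3%, against 18.7% over all genes. Of 41 genes of carotenoid and isoprenoid synthesis, 3 were upregulated and 1 was downregulated, which is 9.76% DEGs against 18.7% over all genes. CrtR-b2, a β-carotene hydroxylase, had 12.1, 32.5 and 16 FPKM at 96 h, against 3.20, 4.38 and 3.05 FPKM at 0 h (log2 fold change 2.12 ± 0.41, adjusted p = 0.00023). The downregulated gene was CRTISO-L2 (log2 fold change -1.28 ± 0.24, adjusted p = 0.00018), and the number was 2 without replicate 2 at 0 h and 2 without replicates 14 and 2 together.

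Sugar metabolism and transport gave 10 upregulated and 3 downregulated genes of 39, the rises including genes of starch breakdown, sucrose cleavage and hexose transport and also AGP-S2 of starch synthesis and SPS of sucrose synthesis. BAM1, a β-amylase, had 1335, 1039.8 and 1142 FPKM at 96 h, against 152, 173 and 161 FPKM at 0 h (log2 fold change 2.84 ± 0.41, adjusted p = 9.5e-06). sus3, a sucrose synthase, had 155, 79.2 and 158 FPKM at 96 h, against 10.9, 46.2 and 17.8 FPKM at 0 h (log2 fold change 2.52 ± 0.44, adjusted p = 8.9e-05). HT2, a hexose transporter, had 56.3, 15.5 and 38.3 FPKM at 96 h, against 0.883, 6.29 and 1.83 FPKM at 0 h (log2 fold change 3.30 ± 0.75, adjusted p = 0.0012). All 96 h libraries were above all 0 h libraries for BAM1, sus3 and HT2. SUS4 (log2 fold change 1.88 ± 0.42, adjusted p = 0.001) and HT1, chosen after its values were seen (1.69 ± 0.34, adjusted p = 0.00043), were also upregulated. Downregulated sugar genes numbered 5 without replicates 14 and 2 together. Both arginine decarboxylase genes, of 8 polyamine genes, were upregulated, and no other was called. adc1 had 954, 1086 and 966 FPKM at 96 h, against 198, 185 and 180.5 FPKM at 0 h (log2 fold change 2.41 ± 0.45, adjusted p = 0.00019). ADC had 302, 405 and 290.1 FPKM at 96 h, against 70.2, 49.1 and 48.3 FPKM at 0 h (log2 fold change 2.56 ± 0.41, adjusted p = 3.3e-05). Replicates of adc1 were close to each other in both groups. Nitrogen genes gave 3 upregulated and 1 downregulated of 25, all 3 rises in transporters. AMT1-1, an ammonium transporter, had 67.8, 59.5 and 56.3 FPKM at 96 h, against 17.8, 14.2 and 16.8 FPKM at 0 h (log2 fold change 1.85 ± 0.37, adjusted p = 0.00039). AAP2, an amino acid permease, had 46.6, 35.1 and 80.9 FPKM at 96 h, against 27.5, 12.2 and 7.43 FPKM at 0 h (log2 fold change 1.82 ± 0.40, adjusted p = 0.00088). The third was AMT1-2 (log2 fold change 1.40 ± 0.44, adjusted p = 0.013), and the number of upregulated nitrogen genes was 5 without replicate 14 at 96 h. The call of AMT1-2 (1.27, adjusted p = 0.074) was lost without replicates 14 and 2 together. Downregulated nitrogen genes numbered 2 without replicates 14 and 2 together. Phosphate genes gave 3 upregulated and 2 downregulated of 16. 5PT1, an inositol polyphosphate 5-phosphatase, had 30.9, 33.6 and 90.2 FPKM at 96 h, against 10.2, 8.38 and 11.3 FPKM at 0 h (log2 fold change 2.09 ± 0.48, adjusted p = 0.0013). In the same family 5PT3 fell (log2 fold change -1.5 ± 0.30, adjusted p = 0.00032).

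Phenylpropanoid genes gave 5 upregulated and 3 downregulated of 24. THT1-4, of the hydroxycinnamoyl transferases that make amides with tyramine, had 143, 125 and 224 FPKM at 96 h, against 22.3, 14.2 and 12.6 FPKM at 0 h (log2 fold change 3.24 ± 0.87, adjusted p = 0.0045). CCR2, a cinnamoyl-CoA reductase of lignin synthesis, had 46.4, 23.7 and 35.1 FPKM at 96 h, against 4.49, 4.68 and 6.01 FPKM at 0 h (log2 fold change 2.53 ± 0.38, adjusted p = 1.4e-05). Neither overlapped between the groups. AnthOMT, an anthocyanin methyltransferase, had 5.32, 6.16 and 2.21 FPKM at 96 h, against 51.8, 11.4 and 45.9 FPKM at 0 h (log2 fold change -2.57 ± 0.83, adjusted p = 0.016). The call of AnthOMT was lost without replicate 15 (-2.22) at 96 h or replicate 1 (-2.19) or 3 (-2.28) at 0 h. Downregulated phenylpropanoid genes numbered 1 without replicate 15 at 96 h or replicate 3 at 0 h and 5 without replicates 14 and 2 together. Cell cycle and histone genes gave 4 downregulated of 32 and none upregulated, which is 12.5% DEGs against 18.7% over all genes. krp3, an inhibitor of cyclin-dependent kinases, had 30.7, 27.5 and 21.5 FPKM at 96 h, against 66, 69.7 and 72.2 FPKM at 0 h (log2 fold change -1.37 ± 0.30, adjusted p = 0.0008). The number of downregulated cell cycle genes was 1 without replicate 13 or 15 at 96 h or replicate 3 at 0 h, 7 without replicate 14 at 96 h and 2 without replicate 1 at 0 h and 9 without replicates 14 and 2 together, and that of upregulated ones was 1 without replicate 14 at 96 h and 1 without replicates 14 and 2 together. Clock and photoreceptor genes gave 3 upregulated and 1 downregulated of 20. LNK1, a clock component, had 80.7, 190.2 and 123 FPKM at 96 h, against 8.02, 13.6 and 16.2 FPKM at 0 h (log2 fold change 3.25 ± 0.43, adjusted p = 3.8e-06). SP6A, of the flowering-time protein family of FT, had 1.96, 2.08 and 4.04 FPKM at 96 h, against 0.294, 0 and 0 FPKM at 0 h (log2 fold change 1.72 ± 0.25, adjusted p = 1.2e-05). The downregulated gene was CO1 (log2 fold change -1.18 ± 0.21, adjusted p = 0.0001), and the number was 2 without replicate 13 at 96 h or replicate 1 at 0 h.

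Among transcripts that encode no protein, the classes were looked at after the values were seen. Small nucleolar RNA (snoRNA) genes, whose products guide the modification of rRNA, gave 55 upregulated and 12 downregulated of 200, which is 33.5% DEGs against 18.7% over all genes. The 55 upregulated snoRNA genes had a median of 20.3 reads per library at 96 h, against 2.33 at 0 h, not scaled for the deeper 96 h libraries. Of these 55 genes, 10 were at 0 in all 0 h libraries. The groups did not overlap in 48 of the 55, and in 1749 of all 1859 upregulated DEGs. Over all 200 snoRNA genes 68 did not overlap, while 49.3% of all genes tested did not. Without replicates 14 and 2, 35 snoRNA genes were upregulated and 7 were downregulated. Transfer RNA genes gave 3 upregulated and 21 downregulated of 68, but 18 of the 21 are the plastid genes already counted and 1 is mitochondrial, and of 28 nuclear ones 3 were upregulated and 2 were downregulated. Long noncoding RNA genes gave 60 upregulated and 119 downregulated of 910, which is 19.7% DEGs against 18.7% over all genes. Transcripts without annotation were balanced, with 55 upregulated and 57 downregulated of 598.

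A further group held the 20 genes that the study refers to by identifier, a list chosen on these samples and so no independent evidence of a direction. At 96 h 10 of them were upregulated, 1 was downregulated and 9 were not called (median log2 fold change 1.41). Besides WRKY31, LOC544313 and the XTHs XTH3, LOC101258345, LOC101258926 and LOC101258632, the upregulated genes were LOC101250636 (log2 fold change 2.29 ± 0.48, adjusted p = 0.00057), LOC101247012 (1.90 ± 0.56, adjusted p = 0.0087), LOC101247936 (1.31 ± 0.45, adjusted p = 0.021) and the antenna gene LOC101267774. The call of LOC101247936 was lost without replicate 14 (1.23) or 15 (1.21) at 96 h or replicate 3 (1.2) at 0 h. The calls of LOC101247012 (1.74, adjusted p = 0.056), LOC101247936 (1.37, adjusted p = 0.059) and LOC101258632 (2.29, adjusted p = 0.057) were lost without replicates 14 and 2 together. LOC101265059 had 5.64, 14.5 and 8.0 FPKM at 96 h, against 34.1, 24.1 and 23.5 FPKM at 0 h (log2 fold change -1.51 ± 0.35, adjusted p = 0.0013). LOC101265059 was thus the downregulated one. Genes of the list that were not called included LOC543855, a WRKY factor (log2 fold change 1.95 ± 0.82, adjusted p = 0.059), and JAZ2, a jasmonate repressor (1.51 ± 0.76, adjusted p = 0.11). SAM2 (0.59), GH3.2 (0.94), CAB6A (-0.04), LOC101254281 (-0.20), LOC101253380 (-0.07), LOC101253938 (-0.14) and LOC101265384 (-0.72) had log2 fold changes within 1 of 0. SAM2 was called without replicate 13 at 96 h (1.1), and GH3.2 without replicate 14 (1.03) or 15 (1.18) at 96 h or replicate 2 (1.22) at 0 h.

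The 96 h values were set beside those of the earlier times in NGSs, each against the same 0 h libraries, so that the comparisons are not independent. Genes followed different courses to their 96 h level. In order of time, the log2 fold changes at 6, 12, 24 and 48 h and then at 96 h were 2.90, 2.46, 2.93, 2.0 and 3.30 for DHN, and 2.35, 1.81, 2.47, 2.39 and 1.98 for PP2C-1. For TAS14 they were 4.19, 3.11, 3.38, 4.30 and 4.83. These genes were above 0 h from the first sampling on. By contrast, GolS2 had log2 fold changes of -0.93, -0.96, 0.31, 1.5 and 3.83, adc1 had -0.78, -0.49, 0.74, 1.29 and 2.41, and XTH3 had -0.26, -0.18, -0.12, 1.01 and 3.82. XTH1 had -2.68, -3.88, -2.89, -2.85 and 1.66, AMT1-2 had -4.99, -5.76, -2.81, 0.80 and 1.40, and PIP1-7 had -1.86, -3.63, -2.80, -1.13 and 1.26. These last 3 genes were below 0 h at the early times and above it at 96 h. Among the falls, rbcL had log2 fold changes of -2.10, -3.47, -3.67, -3.64 and -3.94, GLK2 had -2.77, -4.60, -1.22, -0.66 and -2.22, and GH3-1 had -1.68, -1.75, -1.03, -0.33 and -2.26. The median of the NAC factors was 1.35, 0.77, 1.29, 1.5 and 1.96 at those times, that of the XTHs was -2.07, -1.60, -1.65, -1.66 and 0.54, and that of the plastid genes was -0.75, -1.64, -1.46, -1.57 and -1.67.

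Tested directly, 1866 genes (9.29%) differed between NGSs at 96 h and NGSs at 48 h, of which 1236 (6.15%) were higher at 96 h and 630 (3.14%) were lower. XTHs were higher at 96 h than at 48 h in 10 of 17 cases, and snoRNA genes in 50 of 200. The difference was 2.81 on the log2 scale for XTH3 (adjusted p = 0.019) and 2.33 for GolS2 (adjusted p = 0.0055). It was 1.12 for adc1 (adjusted p = 0.065), which did not pass the FDR. For DHN the difference was 1.3 (adjusted p = 0.042).

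**Figure D4:**
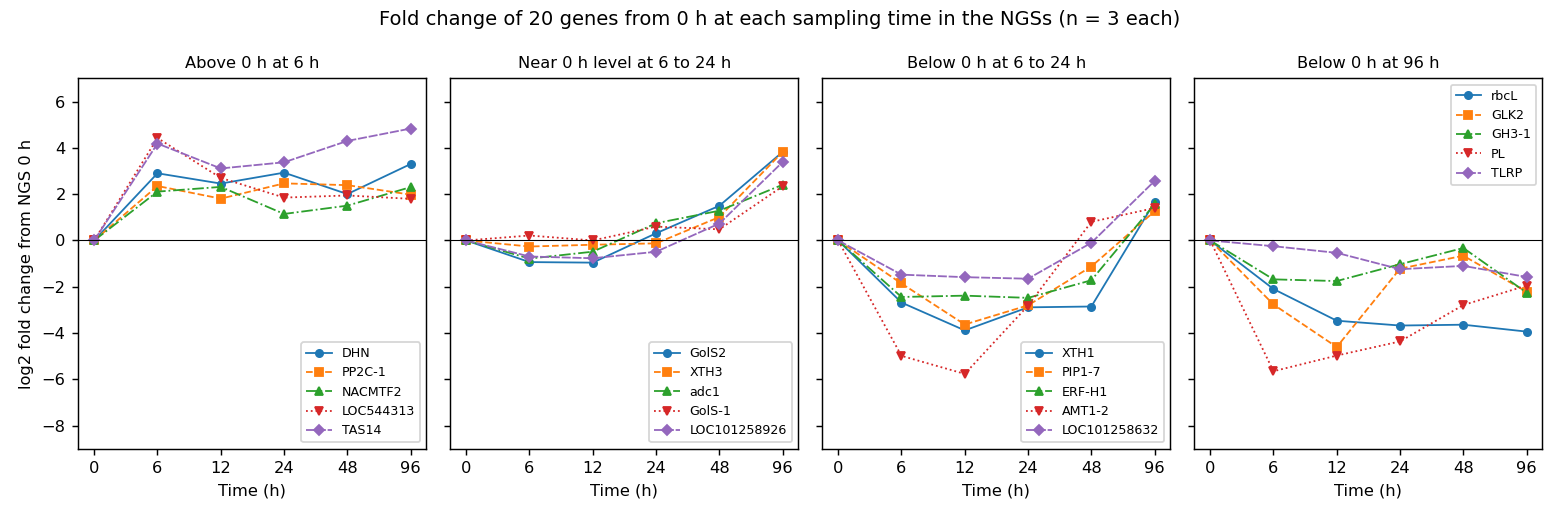
Log2 fold change from 0 h of 20 genes in NGSs (vertical axis, 3 libraries at each time) at 0, 6, 12, 24, 48 and 96 h (horizontal axis, evenly spaced), in 4 panels sorted by course after the values were seen. DHN and PP2C-1 were above 0 h from 6 h on, GolS2 and XTH3 were near or below 0 h up to 24 h, and XTH1 and PIP1-7 were below 0 h at early times and above it at 96 h. At 6 and 12 h the effects of salt and of the hour of the day cannot be told apart.

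The change over 96 h was also set beside that of GSs, whose roots were those of QZ-006. GSs had 2727 DEGs between 96 h and 0 h (13.6%), of which 1843 (9.17%) were upregulated and 884 (4.40%) were downregulated. The log2 fold change of DHN was 3.30 in NGSs and 3.78 in GSs, and that of GolS2 was 3.83 in NGSs and 7.14 in GSs. TAS14 had 4.83 in NGSs and 8.60 in GSs, SGR1 had 3.84 in NGSs and 2.12 in GSs, and adc1 had 2.41 in NGSs and 1.42 in GSs. For rbcL it was -3.94 in NGSs and -1.37 in GSs, and for plastid genes the median was -1.67 in NGSs, with 74 downregulated, and -0.87 in GSs, with 33 downregulated, while no plastid gene passed the test of a different response. The share of plastid reads differed between the kinds of seedling at 0 h and ranged from 0.0245% to 0.0498% in GSs at 96 h. The response itself, tested as an interaction, differed between NGSs and GSs in 51 genes (0.254%), of which 45 (0.224%) had a lower log2 fold change in NGSs and 6 (0.0299%) a higher one. The responses of TAS14 and GolS2 were not among them, with adjusted p of 0.27 and 0.073 for the difference. Of the 45 genes, 34 were downregulated in NGSs. In 23 of the 45 the NGSs were under 1 FPKM in all libraries at 96 h, and the mean of the GSs at 96 h was at most 2.17 FPKM. At 0 h the means of these genes ranged from 0 to 87.5 FPKM in NGSs and from 0 to 3.22 FPKM in GSs. In 22 of the 23, all 3 NGS libraries at 0 h were above all 3 GS libraries at 0 h. The 23 genes were chosen by a test that includes these same 0 h values and by low values in NGSs at 96 h. Their separation at 0 h therefore follows in part from that choice and adds no support. The share of all genes tested with such a separation was not counted. These 23 comprised 6 unannotated transcripts, 14 other genes that the reference does not list as protein-coding and 3 protein-coding genes. The number of genes with a different response was 28 without NGS replicate 15 at 96 h, 195 without NGS replicate 1 at 0 h, 23 without NGS replicate 3 at 0 h and 21 without GS replicate 14 at 96 h.

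**Figure D5:**
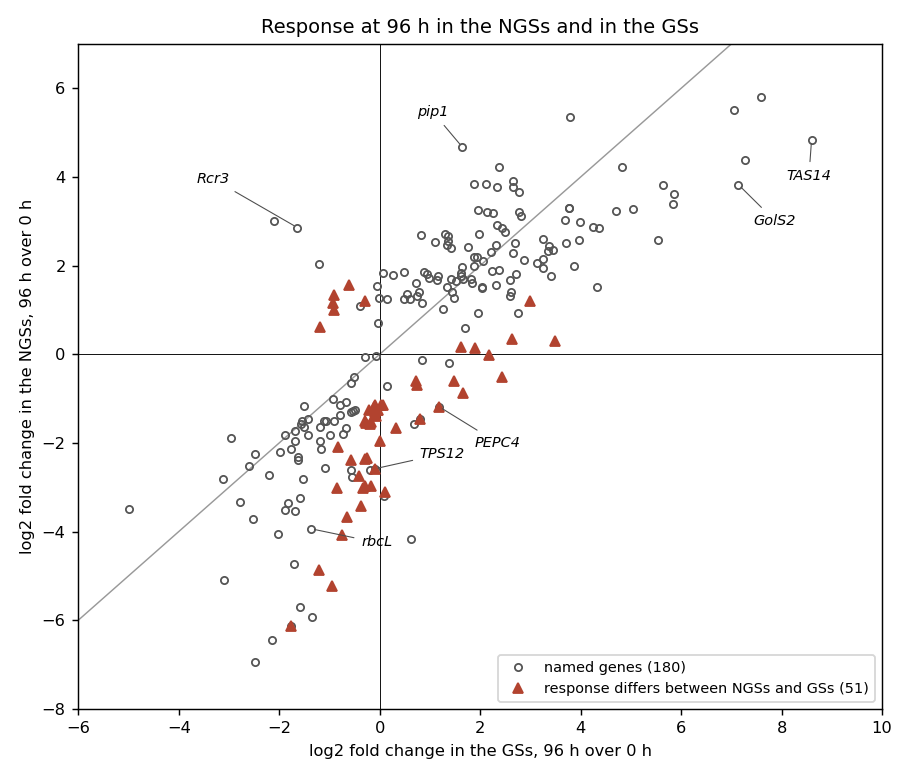
Log2 fold change at 96 h against 0 h in NGSs (vertical axis) and in GSs (horizontal axis) for the 180 genes chosen for naming and the 51 genes whose response differed between them; the diagonal marks an equal response. The 45 genes with a lower fold change in NGSs lie below the diagonal, the most distant of them, an unannotated transcript, by -4.36.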

How the data were processed

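Leaf RNA of 36 tomato samples was sequenced from NEBNext Ultra libraries. The authors mapped reads to the tomato genome and counted them per gene, and the submitters' processing notes name HISAT2 2.0.5, featureCounts 1.5.0-p3, DESeq2 1.16.1 and STAR-Fusion 1.2.0. The deposited table holds values that behave as FPKM, and whole reads were recovered from the steps of the low values for 100% of 27368 genes above 0 (tolerance 0.02 reads). Strandedness of the counting is not given in the sources used here.

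limma 3.58.1 (R 4.3.3) was fitted to log2(FPKM + 1) of the 20090 of 32246 genes with at least 1 FPKM in at least 3 libraries, with 12 group means over 36 libraries (24 residual degrees of freedom) and Benjamini-Hochberg adjustment. DEGs had an FDR under 0.05 and a log2 fold change of 1 or more in size, the thresholds of the study's methods. On simulated data, 181 of 199 genes changed 4-fold were called in the right direction, 0 in the wrong one, and 19 of 18842 unchanged genes were called. The simulation gave all genes and libraries the same dispersion, changed only well-covered genes and held no libraries that stood apart. It therefore does not give the error rate in the real libraries. Sums were compared by exact permutation tests. Python 3.11.15 with numpy 2.4.6, pandas 2.3.3, scipy 1.17.1 and matplotlib 3.10.9 was used.

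Gene names came from RefSeq's table of assembly SLM_r2.1, which matched 28942 IDs. Genes were named by rule: the 12 largest rises and falls among annotated DEGs whose libraries do not overlap, the 3 largest of each direction among all such DEGs, up to 4 DEGs of each group with the largest change, genes the study names by identifier, annotated genes at 0 in a whole group, and the 5 annotated genes with the largest rise and fall in mean FPKM. Others are said to be chosen after their values were seen. The members and gene lists were chosen with earlier results of these data known. Other pseudocounts, filters, scaling, libraries in the fit, voom on the recovered reads, a replicate block and each library left out were tried. The limma p-values rest on the spread between samples of a group, pooled over the 12 groups. That spread can differ from the spread of the 3 samples in either group compared. With only the 6 libraries compared in the fit, the calls of AS1, CHI3, CAB12 and POR were among those lost.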

Additional observations from a re-analysis of the deposited data

Results flagged for a closer look

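The response to 96 h of salt, the log2 fold change against 0 h, was tested for a difference between NGSs and GSs, and of the genes named here 4 passed limma's test at the fold and FDR thresholds. An unannotated transcript, also among the 3 largest falls, had a response that differed by -4.36 (NGSs minus GSs) (adjusted p = 0.0381). PEPC4, a phosphoenolpyruvate carboxylase, differed by -2.37 (adjusted p = 0.00485). TPS12, a terpene synthase, differed by -2.48 (adjusted p = 0.0421), and CYP77A19, a cytochrome P450, by -2.27 (adjusted p = 0.0309). The last 3 were chosen after their values were seen. No cause of these differences was tested.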

How the results depend on the processing

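No gene chosen for naming that was called changed direction under the settings tried, but the balance of the counts did: 49.4% of the DEGs were upregulated, and 44.3% to 54.0% under the settings, the highest when scaled to the total reads (1954 upregulated, 1663 downregulated). Against 3761 DEGs (1859 upregulated, 1902 downregulated), a pseudocount of 5 gave 2097 (1066 and 1031), the FDR alone gave 8091 (3709 and 4382), a pseudocount of 0.1 gave 4678 (2451 and 2227), and voom on the recovered reads gave 4344 (2038 and 2306). Leaving out 1 library at a time gave 3007 to 4271 DEGs, 1436 to 1992 upregulated and 1571 to 2279 downregulated. Of 166 called genes that were chosen for naming, 102 kept the call in all 14 settings, 48 lost it without at least 1 library and 45 in at least 1 other setting. The 216 DEGs of the 38 groups were 171 to 245 with 1 library left out, and the 1866 genes that differed between 96 h and 48 h were 1395 to 2128. The count of 51 genes with a different response in NGSs and GSs was the least stable of these counts: it was 11 with a pseudocount of 0.1, 105 with only the libraries compared, 5 with voom, 67 without NGS replicates 14 and 2 (an alternative chosen after seeing the data) and 21 to 195 with 1 library left out. The shared replicate numbers of NGSs and GSs did not pair the libraries (correlations of deviations from -0.394 to 0.427), and with the replicate block 78 genes differed; the 96 h and 0 h libraries share no numbers. Depth limits the snoRNA genes, with a median of 2.33 reads at 0 h among those upregulated. Promoter motifs were not run.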
